A study of Mus musculus with 4 samples.

Results

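F13a1, Ms4a6c, Ly86, Ccr2, Ctss, Lyz2, Fn1, Ly6c2, Mpeg1 and Emb are genes whose transcripts are found in cells of the monocyte lineage. They were picked by symbol from the gene rows of the deposited count matrices, where each symbol had 1 row, and make up 10 of 32285 genes. RNA and surface antibodies were counted together (CITE-seq) in single CD45.2+Kit+ cells of mouse bone marrow, taken 10 weeks after transplantation. Kit (CD117) is the stem cell factor receptor of blood progenitors, and CD45.2 is a variant of a leukocyte surface protein that tells donor from host cells. Each of the 4 groups has 1 library: a control, Mll3SI, Mll4SI and the combined Mll3/4SI. The labels do not spell out SI and give no strain, sex, host or number of animals. The proteins MLL3 (gene Kmt2c) and MLL4 (gene Kmt2d) methylate histone H3 at enhancers. With 1 library in each group no difference below has a replicate check, no test was possible, and bracketed intervals (95%) cover counting error only.

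Monocytes arise in the bone marrow from progenitors that they share with granulocytes, under transcription factors such as PU.1 (Spi1), Irf8 and Klf4 and the growth factor receptor Csf1r. Classical monocytes carry Ly6C and leave the marrow through the chemokine receptor Ccr2, and in tissues they take up particles and degrade them in lysosomes. Kit+ cells are progenitors, so the cells measured here are forerunners of such monocytes and not circulating ones. Among the 10 genes, Ccr2 is the receptor for the chemokine Ccl2. Ly86 (MD-1) is the secreted partner of the receptor Cd180, Ly6c2 is a GPI-anchored surface protein and Ms4a6c is a membrane protein of the MS4A family. Emb (embigin) is a surface glycoprotein that partners monocarboxylate transporters. Lyz2 is lysozyme, Ctss is the lysosomal protease cathepsin S and Mpeg1 is a pore-forming protein of phagocytes. F13a1 is the A chain of coagulation factor XIII, a transglutaminase that links fibrin strands, and Fn1 is fibronectin, a matrix protein that it can link to fibrin.

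The sequences just upstream of 4 of these genes are shown to set out what letters linked to monocyte factors they hold. RefSeq (GRCm38.p6) promoters were matched for 9 of the 10 genes, all but Fn1, and the 250 bases before the transcription start were searched on both strands. Each line runs 5′ to 3′ on the gene's strand, with matches in capitals.
F13a1, chr13:37050245-37050494, minus strand: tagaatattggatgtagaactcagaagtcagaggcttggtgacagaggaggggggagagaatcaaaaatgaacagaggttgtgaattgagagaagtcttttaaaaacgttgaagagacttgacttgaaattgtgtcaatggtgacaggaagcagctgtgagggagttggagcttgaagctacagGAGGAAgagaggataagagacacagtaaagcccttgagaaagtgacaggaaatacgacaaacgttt
Ctss, chr3:95526536-95526785, plus strand: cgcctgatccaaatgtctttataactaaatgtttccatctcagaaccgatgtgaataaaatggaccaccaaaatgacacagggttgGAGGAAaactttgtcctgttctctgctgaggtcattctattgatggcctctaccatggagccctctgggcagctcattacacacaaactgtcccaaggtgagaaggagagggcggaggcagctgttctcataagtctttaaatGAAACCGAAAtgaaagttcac
Ly6c2, chr15:75111972-75112221, minus strand: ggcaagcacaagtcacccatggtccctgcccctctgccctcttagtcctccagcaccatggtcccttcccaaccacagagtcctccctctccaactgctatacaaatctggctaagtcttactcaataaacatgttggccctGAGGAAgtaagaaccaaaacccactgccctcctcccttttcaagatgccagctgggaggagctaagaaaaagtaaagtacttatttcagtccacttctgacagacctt
Ms4a6c, chr19:11469118-11469367, plus strand: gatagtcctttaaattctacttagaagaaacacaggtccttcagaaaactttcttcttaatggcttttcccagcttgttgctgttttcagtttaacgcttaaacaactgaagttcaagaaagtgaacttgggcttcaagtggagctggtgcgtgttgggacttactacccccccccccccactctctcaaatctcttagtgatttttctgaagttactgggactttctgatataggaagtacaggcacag
The letters GAGGAA, the core that PU.1 binds, were found upstream of F13a1, Ctss and Ly6c2, which is 3 of 9 genes. They were found in 23.3% of all 32851 promoters of that length. A gene was counted if any of its promoters matched, whereas the share of all promoters counts each promoter, so the 2 are not alike. F13a1 and Ly6c2 have 2 promoters each, of which the first is shown, and the second of F13a1 holds no match. A repeat bound by IRF factors, GAAA with 2 bases of any kind before a second GAAA, was found upstream of Ctss and in 2.98% of all promoters. The C/EBP letters TTGCNNAA (N is any base) were found in none of the 9 and in 9.56% of all promoters. The motifs share no letters in these windows. A match is only a string of letters, and no match says only that these letters are not in the window. The Ms4a6c line holds none of the 3 strings. F13a1 and Ly86 lie 295 kb apart on chromosome 13, and Ms4a6c and Mpeg1 lie 979 kb apart on chromosome 19.

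The libraries held 7524 to 11678 cell barcodes and 140546094 to 177753607 gene UMIs (unique molecular identifiers, each one counted molecule), and any pair of libraries shared 16 to 29 barcodes. After filtering and doublet removal 31707 cells were kept (6743, 8023, 10186 and 6755; values of the 4 libraries always follow the order control, Mll3SI, Mll4SI, Mll3/4SI). Kmt2c stood at 129.6, 110.3, 147 and 123 CPM and Kmt2d at 41.3, 38.0, 35.1 and 33.3 CPM (UMIs per 1000000 gene UMIs), and the labels do not say whether either transcript should change. The libraries also differed in sex-linked RNA. Xist stood at 0.0315, 0.194, 1148 and 1359.8 CPM, and the Y-linked Eif2s3y at 63.3 and 62.0 CPM in control and Mll3SI and at no UMI in Mll4SI and Mll3/4SI, where 3 UMIs would be 0.0204 and 0.0211 CPM. In every comparison of Mll4SI and Mll3/4SI with control, the label and this difference cannot be told apart.

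Cells were clustered without the 10 genes, and 2 of 23 clusters were named monocyte-like from 14 markers that hold none of the 10. Both clusters were drawn from all libraries. F13a1 led both by fold with Irf8 next, and Ms4a6c, Ly86 and Emb also stood among the leading 10 genes of each, which describes where the 10 genes lie and tests nothing. The smaller cluster, cluster 9, held dividing cells, with the mitosis gene Top2a at 603 to 649.7 CPM against 142 to 167 CPM in cluster 5. Csf1r, the defining growth factor receptor, stood at 48.7 to 54.6 CPM in the monocyte-like cells of the 4 libraries. Elane, a primary granule protease of early granulocytes, stood at 4747 to 5830 CPM in the same cells, so the class as a whole carried both monocyte and granulocyte RNA.

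The 10 genes did not share one cell source. Monocyte-like cells held the highest level of F13a1, Ms4a6c, Fn1, Ly6c2 and Emb by the median over libraries, dendritic-like cells (24 to 50 cells a library) that of Ly86, Ccr2, Ctss and Mpeg1, and granulocyte-like cells that of Lyz2. F13a1 stood at 844, 839, 1123 and 749 CPM in monocyte-like cells, 33.6 to 81.2 times its level in the granulocyte-like cells of the same library. The next named class, dendritic-like cells, ranged from 13.4 to 210.3 CPM and did not overlap the monocyte-like range. Ms4a6c ranged from 554 to 828 CPM in monocyte-like and from 362 to 652 CPM in dendritic-like cells, so these neighbours overlapped. Basophil/mast-like cells (cluster 17 alone) at 66.4 to 174.5 CPM and HSC/MPP-like cells (stem cells and multipotent progenitors) at 73.8 to 120.3 CPM followed, and overlapped each other. Emb reached 649 to 733 CPM in monocyte-like cells, followed without overlap among the named classes by T/NK-like cells at 358 to 498 CPM and HSC/MPP-like cells at 231 to 281 CPM.

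Ly6c2 and Lyz2 were shared with granulocytes. Ly6c2 stood at 1516, 1479, 1618 and 1820 CPM in monocyte-like cells and at 913, 941, 821 and 721 CPM in granulocyte-like cells, which held 56.4% to 67.2% of its UMIs. Lyz2 stood at 8362, 7068, 9987 and 8314 CPM in granulocyte-like cells against 412, 464, 795 and 689 CPM in monocyte-like cells, and 93.2% to 97.1% of its UMIs lay in granulocyte-like cells. Most Lyz2 RNA of these progenitors was thus counted in granulocyte-like cells. Mpeg1 was spread over both classes, with 14.7% to 41.1% of its UMIs in monocyte-like and 42.4% to 62.7% in granulocyte-like cells. Ly86, Ccr2 and Ctss stood at 182 to 203, 90.6 to 172.5 and 45.5 to 53.9 CPM in monocyte-like cells. Their dendritic-like ranges were 192 to 257, 334 to 680.5 and 259 to 387 CPM, which overlapped the monocyte-like range for Ly86 only. T/NK-like cells, with 12 to 47 cells a library, held Ccr2 at 277 to 555 CPM. Lyz2 and Ly6c2 each have a near copy. Of the 25-base words in the last 500 bases of their transcripts, Lyz2 shares 44.3% with Lyz1 and Ly6c2 shares 59.3% with Ly6c1, so how reads were split between the copies is uncertain. Lyz1 and Ly6c1 were each counted at under 1 CPM in monocyte-like cells.

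**Figure D1:**
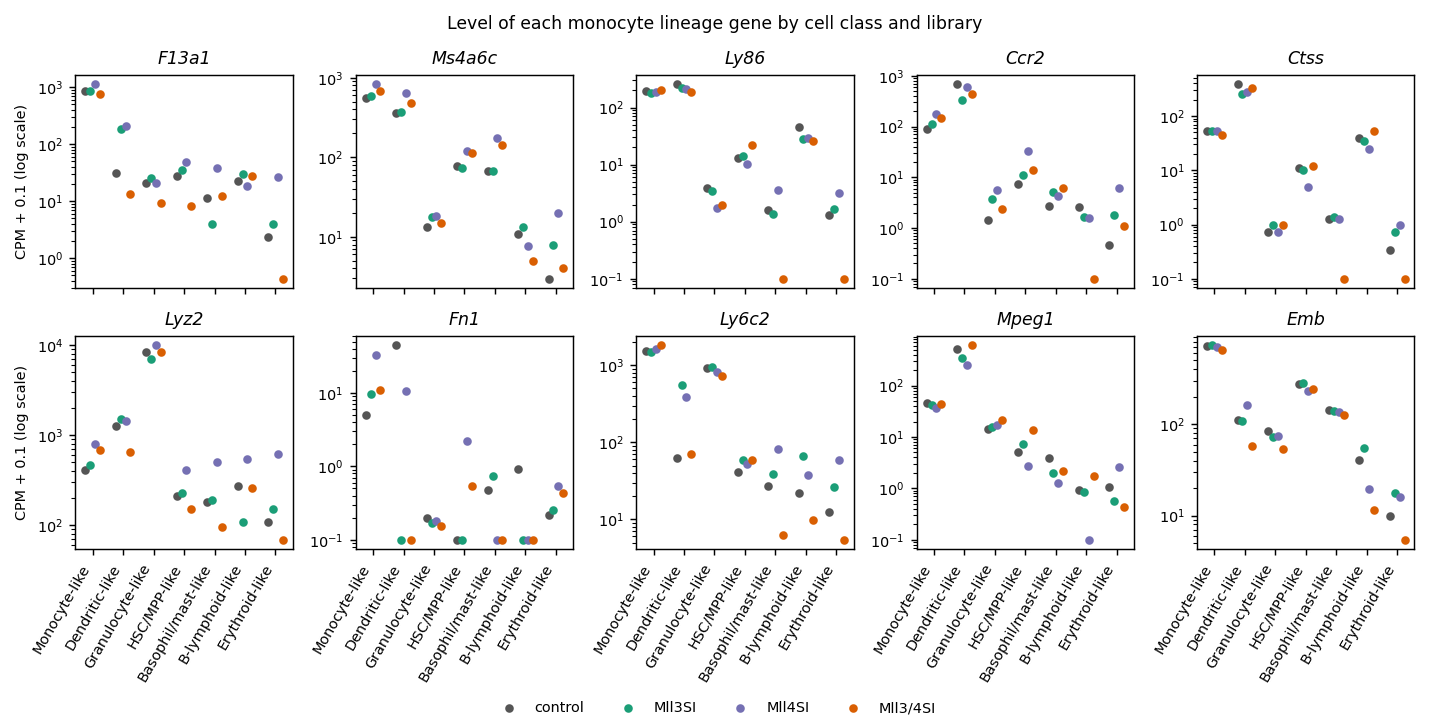
Level of each of the 10 genes in 7 cell classes, in CPM plus 0.1 on a log axis, with 1 point for each of the 4 libraries. Lyz2 is highest in granulocyte-like cells, F13a1 and Emb in monocyte-like cells, and Ctss and Mpeg1 in dendritic-like cells.

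Monocyte-like cells took a smaller share of the Mll3/4SI library than of the other 3. They were 766 (11.4%), 1096 (13.7%), 942 (9.25%) and 321 (4.75%) of the kept cells. Set against control, Mll3SI held 1.20 times the share [1.10 to 1.31], Mll4SI 0.814 times [0.743 to 0.892] and Mll3/4SI 0.418 times [0.368 to 0.475]. Each library carries 2 hashtag antibodies whose meaning the labels do not give, and the share differed between them. Hashtag1 cells were monocyte-like in 11.8%, 14.99%, 10.6% and 7.24% of cases, and Hashtag2 cells in 11.2%, 12.8%, 7.96% and 2.85%. Both Mll3/4SI values lay below every other one, although the Hashtag1 interval, 6.32% to 8.24%, overlapped that of the Mll4SI Hashtag2 cells, 7.20% to 8.76%. The Hashtag1 interval of Mll4SI, 9.76% to 11.5%, overlapped both control intervals. The Mll3/4SI ratio depended on how cells were classed: it was 0.85 when each cell took the class of its nearest control cells. With only the shares of classes changed, as set out below, F13a1 came to a log2 ratio of -0.25 under that classing. Without cluster 6, also described below, it came to -0.53, near the -0.55 of the main classing.

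**Figure D2:**
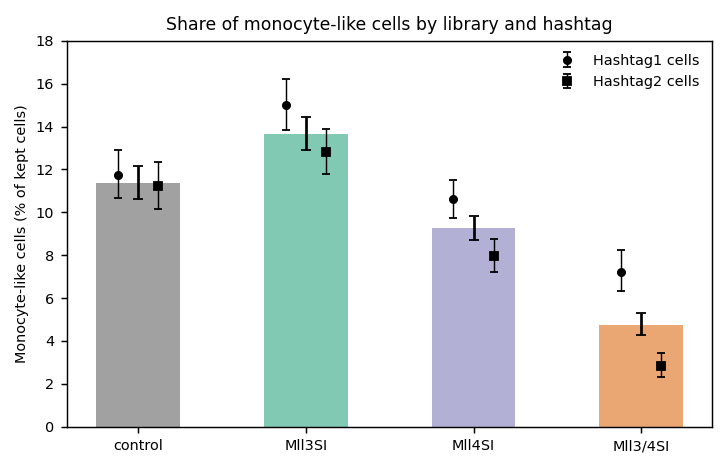
Percentage of kept cells that were monocyte-like in each library (bars) and in the cells of each hashtag (points), with exact 95% binomial intervals. The Mll3/4SI bar is lowest at 4.75%, and its hashtags differ, at 7.24% and 2.85%.

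Summed over all kept cells, 9 of the 10 genes had a mean of at least 10 CPM and were counted as tested, all but Fn1. A gene was called when it passed a fold of 1.5 in either direction. None was called in Mll3SI (1.1% of all 8166 genes tested there were), 1 was called in Mll4SI (background 5.52%) and 4 in Mll3/4SI (background 3.72%). The median log2 ratio of the 10 genes was 0.10, 0.19 and -0.07 in the 3 libraries, beside -0.01, -0.11 and -0.07 over all genes tested. Ccr2 was the gene called in Mll4SI, at 20.6, 27.0, 38.4 and 33.4 CPM in the 4 libraries. Its log2 ratios were 0.38 [0.32 to 0.47], 0.87 [0.83 to 0.97] and 0.67 [0.63 to 0.77], with every SI library above control. The Mll4SI call was lost with means over cells, at 0.46, and the Mll3/4SI call with 10 CPM added, at 0.50, and in Hashtag1 cells, at 0.53. In Mll3/4SI, Ms4a6c rose with it, at 118, 138, 164 and 221 CPM and a log2 ratio of 0.90 [0.88 to 0.94] (0.46 in Hashtag1 cells). F13a1 (161, 186, 201 and 91.7 CPM) and Ctss (12.8, 13.2, 10.2 and 8.08 CPM) fell by 0.81 and 0.60 on the log2 scale in the same library. The Ctss call was lost in 6 of the alternatives, and its value ranged from -0.63 to -0.31.

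The Mll3/4SI rise of Ms4a6c summed over all kept cells depended on 1 cluster that the other libraries nearly lack. Outside it, levels within classes still gave a log2 ratio of 0.36 with control shares kept, as set out below. Cluster 6, led by Cpa3 and Fcer1a, which basophils and mast cells are known for, held 1891 cells, of which 1872 were Mll3/4SI cells (27.7% of that library). It was set aside from the named classes because it was nearly all of 1 library and 99.6% of its cells stayed unnamed at a finer clustering. The marker rule itself names it basophil/mast-like, from 6 markers of that class against 3 of monocytes. Clusters 12 and 20, with 1140 of 1150 and 323 of 324 cells from Mll3/4SI, were kept as granulocyte-like. With cluster 6 counted as basophil/mast-like, the Mll3/4SI level of that class would be 480.7 CPM for Ms4a6c in place of 141 CPM, and 383 CPM for Emb in place of 126 CPM. It held 69.1% of the Ms4a6c UMIs of Mll3/4SI, 55.9% of those of Emb, 52.9% of those of Ccr2 and 31.8% of those of F13a1. Without it the log2 ratio of Ms4a6c in Mll3/4SI turned to -0.24 and that of Ccr2 was 0.15. F13a1 stayed at -0.82, and Emb came to -0.69, past the fold. Its 3 largest parts at the finer clustering differed. The part led by Cpa3 and Fcer1a (996 cells) held Ms4a6c at 305 CPM with F13a1 at 9.91 CPM and Ly6c2 at 25 CPM. The parts led by Mpo and by Prtn3 (744 and 125 cells) held Ms4a6c at 676 and 796 CPM, F13a1 at 156 and 322 CPM and Ly6c2 at 893 and 1314 CPM. Ms4a6c was thus carried by all 3 parts, and F13a1 and Ly6c2 mainly by those with primary granule genes. The cluster made up 14.8% of the Hashtag1 and 38.7% of the Hashtag2 cells of Mll3/4SI.

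**Figure D3:**
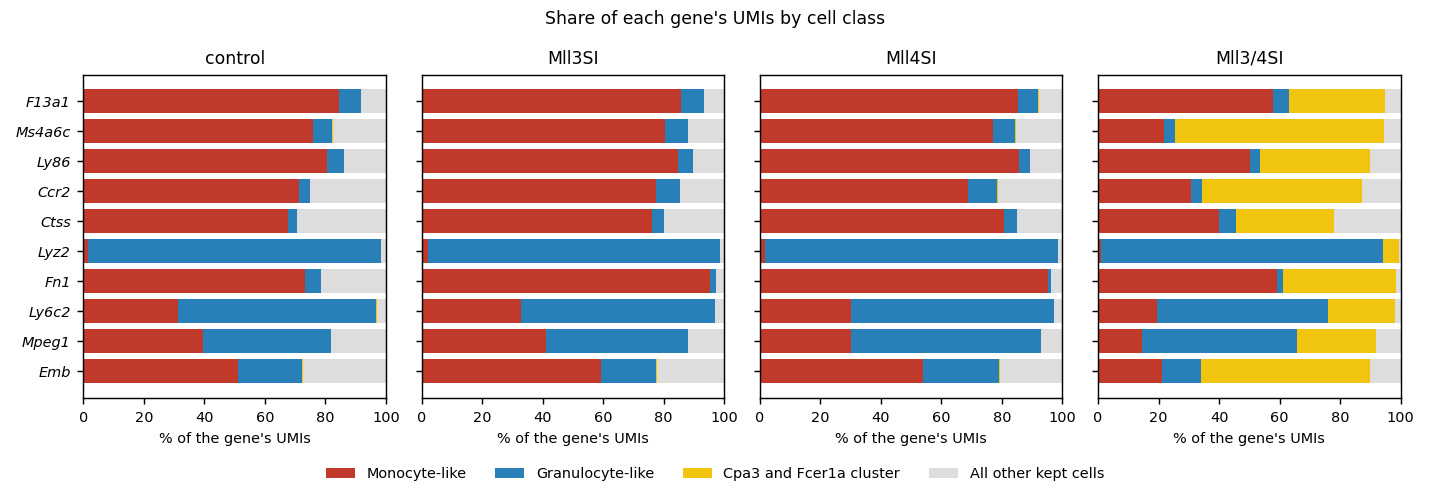
Percentage of each gene's UMIs in monocyte-like cells, granulocyte-like cells, the Cpa3 and Fcer1a cluster and all other kept cells, with 1 panel for each library. In Mll3/4SI the Cpa3 and Fcer1a cluster holds 69.1% of the Ms4a6c UMIs, and in every library most Lyz2 UMIs lie in granulocyte-like cells.

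Outside that cluster, class shares and class levels were taken apart for each gene. With control levels kept in each class and only the shares of classes changed, F13a1 and Ms4a6c of Mll3/4SI came to log2 ratios of -0.55 and -0.58. With control shares kept and only the levels changed they came to -0.22 and 0.36. In Mll4SI the same steps gave -0.20 from shares and 1.03 from levels for Ccr2. With cells classed by their nearest control cells these values were -0.53 and -0.25 for F13a1 and -0.24 and 1.07 for Ccr2. With cluster 6 kept as well, F13a1 came to -0.25 from shares and -0.55 from levels, so the larger of its 2 values depends on that cluster.

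Within monocyte-like cells all 10 genes were tested, and the median of the 10 log2 ratios was 0.02, 0.25 and 0.17, beside 0.00, -0.02 and -0.04 over all 8214 genes tested. In Mll3SI 1 gene was called (background 0.73%), in Mll4SI 3 (background 2.48%) and in Mll3/4SI 3 (background 1.63%). All calls were upward: Fn1 in Mll3SI, and Ccr2, Lyz2 and Fn1 in both Mll4SI and Mll3/4SI. Fn1 reached the minimum of 10 CPM only through Mll4SI, where it was highest (mean of the other 3 libraries 8.53 CPM), so its calls are given as a description only. These comparisons share the control library, so the values of the 2 libraries are not independent of each other.

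Ccr2, the receptor through which monocytes leave the marrow, stood at 90.6, 110.5, 172.5 and 144.6 CPM in monocyte-like cells. The log2 ratios were 0.28 [0.20 to 0.37], 0.92 [0.85 to 1.01] and 0.67 [0.57 to 0.77]. The median cell held 66.6, 84.2, 143 and 112 CPM. The order of the libraries was the same in both clusters, with 95.2, 118, 177.5 and 158 CPM in cluster 5 and 85.1, 103, 166 and 128 CPM in cluster 9. It held for each hashtag too, with log2 ratios of 0.88 and 1.03 for Mll4SI, 0.55 and 0.78 for Mll3/4SI, so that the Hashtag1 value of Mll3/4SI lay under the fold of 1.5, as did the value without doublet removal, 0.56. After each cell was thinned to 3000 UMIs, 21.3%, 26.6%, 37.4% and 32.5% of monocyte-like cells held a Ccr2 UMI, against 0 to 1.88% of erythroid-like cells. Its ligand Ccl2 and the 6 other ligands on the list were all under the level tested in these cells.

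Fn1 was a rare transcript of a few cells. It stood at 4.97, 9.60, 33.2 and 11 CPM in monocyte-like cells (102, 225, 746 and 111 UMIs). On the log2 scale this was 0.83 [0.61 to 1.3], 2.52 [2.44 to 3.05] and 1.01 [0.75 to 1.55] above control. Every SI library lay above control, and Mll4SI stood apart from the other 3. A Fn1 UMI was found in 6.53%, 8.67%, 19.3% and 9.03% of the cells. In Mll3/4SI the 5 cells with most Fn1 held 54.1% of its UMIs, against 16.2% in Mll4SI, and thinning left 1.71%, 3.02%, 7.77% and 1.88% of cells with a UMI. The Mll3SI call was lost with 10 CPM added, at 0.39, at Leiden resolution 0.5, at 0.54, and in Hashtag1 cells alone, at 0.32. The Mll3/4SI call was lost with 10 CPM added, at 0.49, and with cells classed by their nearest control cells, at 0.35.

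Lyz2 stood at 412, 464, 795 and 689 CPM in monocyte-like cells, which on the log2 scale was 0.17 [0.13 to 0.21], 0.94 [0.91 to 0.98] and 0.74 [0.70 to 0.79] above control. The medians per cell were 265, 277, 415 and 313 CPM. In Mll3/4SI 1 cell held 739 of the 6949 UMIs and the top 5 cells held 26.3%, against 4.53% to 7.11% in the other libraries. Erythroid cells are not known to make lysozyme, and erythroid-like cells held Lyz2 at 107, 152, 613 and 68.7 CPM. The monocyte-like level lay above that of erythroid-like cells by 305, 312, 181.5 and 621 CPM. By this difference Mll4SI was below control and Mll3/4SI above it. The level of 613 CPM was not spread evenly over the erythroid-like cells of Mll4SI, though. After thinning, 37.1% of them held a Lyz2 UMI, against 29.2% in control at 107 CPM, so the Mll4SI difference is uncertain. Other granulocyte RNA was also higher in Mll4SI, but not in Mll3/4SI: 7 of 14 granulocyte markers tested were higher in the monocyte-like cells of Mll4SI (Fcnb, Ltf, Camp, Ngp, S100a8, S100a9 and Lcn2), 2 in Mll3SI and 0 in Mll3/4SI. The summed level of that list was 18285, 19443, 25839.9 and 19018 CPM. S100a8 rose from 359 to 1637 CPM in Mll4SI. Their part in the Lyz2 result was not tested.

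The same difference left the other members nearly as they were. Ccr2 lay above erythroid-like cells by 90.2, 109, 166 and 144 CPM, and F13a1 by 842, 836, 1097 and 748 CPM. F13a1 had log2 ratios of -0.01 [-0.04 to 0.02], 0.41 [0.38 to 0.44] and -0.17 [-0.21 to -0.13] in monocyte-like cells, and Ms4a6c, at 554, 584, 828 and 684 CPM, had 0.08 [0.04 to 0.11], 0.58 [0.55 to 0.61] and 0.30 [0.26 to 0.35]. Both were highest in Mll4SI, and neither passed the fold, though Ms4a6c in Mll4SI lay just under it at 1.496 times control. There it passed the fold in cluster 5 (0.60) and in Hashtag2 cells (0.62), but not in cluster 9 (0.56) or Hashtag1 cells (0.57). Ly86, Ctss, Ly6c2, Mpeg1 and Emb kept within 0.36 of control on the log2 scale in all 3 libraries. Ly6c2 came to -0.04, 0.09 and 0.26, Emb to 0.04, -0.02 and -0.13, and Mpeg1 to -0.15, -0.36 and -0.06. None of these 5 passed the fold in any SI library.

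**Figure D4:**
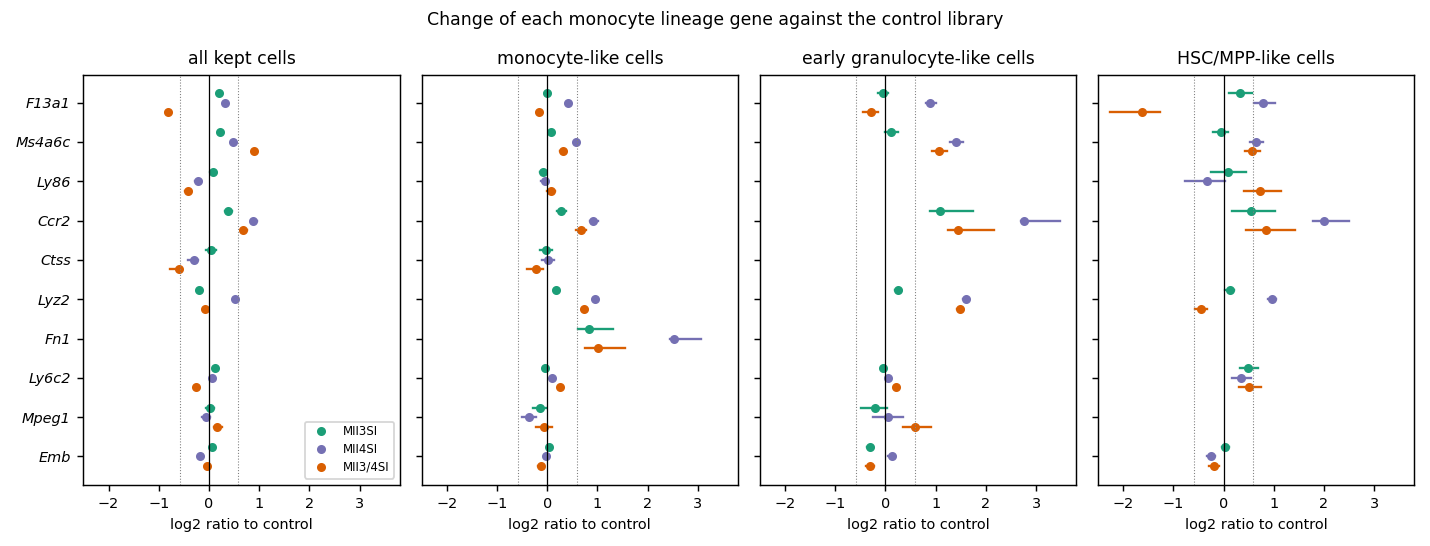
Log2 ratio to control of each gene in all kept cells, monocyte-like cells, early granulocyte-like cells and HSC/MPP-like cells. Points are ratios of CPM plus 1, bars are exact 95% intervals of the ratio without the added 1, dotted lines mark a fold of 1.5, and genes under a mean of 10 CPM in a panel are left out. Ccr2 lies right of 0 in every library of the monocyte-like panel, and F13a1 of Mll3/4SI lies left of 0 in all 4 panels.

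Other genes of the pathway were called in monocyte-like cells at larger shares than all genes tested, from small numbers. Of 46 such genes tested, 2 were called in Mll3SI (background 0.73%), 5 in Mll4SI (background 2.48%) and 2 in Mll3/4SI (background 1.63%). Of 12 monocyte transcription factors 9 were tested and 0 were called in any SI library. Irf8, which drives the monocyte and dendritic fate, stood at 580, 603, 618 and 490.1 CPM, and Klf4 and Spi1 kept within 0.20 on the log2 scale. Of 16 receptor and signalling genes 7 were tested. Cd180, the partner of Ly86, was lower in Mll3SI (17.0 to 8.66 CPM), and Cx3cr1, the receptor of patrolling monocytes, was lower in Mll4SI and Mll3/4SI (24.2, 17.5, 13.7 and 15.6 CPM). Csf1r kept within 0.16. Of 12 adhesion genes 10 were tested, with Tgfbi lower in Mll3SI, and in Mll4SI Itgam higher (16.1 to 26.1 CPM) and Itgal lower (54.6 to 31.3 CPM). Of 16 lysosome and phagocyte genes 13 were tested, and only Cybb in Mll4SI was called, at 102 to 173 CPM. Itgam, Itgal and Cybb were called in the same directions in HSC/MPP-like cells of Mll4SI, so these changes were not particular to monocyte-like cells. The part of granulocyte RNA in them was not tested. Among paralogues, Ms4a4c rose in Mll4SI and Mll3/4SI (20.03, 24.4, 37.1 and 58.3 CPM), whereas Ms4a6b at 88.1, 77.6, 131 and 111 CPM did not pass the fold. Bsg, a relative of embigin, and Slc16a1, a monocarboxylate transporter, kept within 0.20. All these lists were chosen with results of these data known, so the shares called are given as a description only.

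Surface antibodies gave a readout of protein in the same cells. CD11b, the protein of Itgam, took 0.748%, 1.02%, 1.49% and 1.54% of the surface antibody UMIs of monocyte-like cells. CD16/32 (the Fc gamma receptors that mark granulocyte-monocyte progenitors) took 30.9%, 31.0%, 32.4% and 36.2%. Its median centred log2 ratio per cell was 5.262, 4.957, 5.303 and 5.3275, so its larger Mll3/4SI share was barely seen in the median cell. The log2 ratio of that share to control was 0.229, against 0.718 in granulocyte-like, 0.3802 in HSC/MPP-like and 0.743 in dendritic-like cells. The larger share was thus not particular to monocyte-like cells. Gr1, an antibody that binds Ly6G and also Ly6C, took 2.44%, 3.37%, 4.77% and 2.55%, highest in Mll4SI where the granulocyte markers were also highest. Its median centred log2 ratio per cell was 1.072, 1.140, 1.677 and 0.801, so it was highest in Mll4SI by both measures and in Mll3/4SI below control by this one only. CD117, on which the cells had been sorted, took 8.49%, 7.25%, 7.28% and 6.31%. The median centred log2 ratio of CD11b per cell was -0.38, -0.45, -0.35 and 0.17, so its larger share in Mll4SI was not seen in the median cell, and that in Mll3/4SI was.

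Granulocyte-like cells were tested for 6 of the genes. None was called in Mll3SI (background 1.48%) or Mll4SI (background 8.48%), and 2 were in Mll3/4SI (background 5.54%): F13a1 at 20.7, 25, 20.3 and 9.22 CPM (log2 -1.09) and Emb at 85.1, 72.9, 74.9 and 54.0 CPM (log2 -0.65). Of the 12 granulocyte-like clusters 5 drew over 80% of their cells from 1 library. With cells given the class of their nearest control cells the Emb ratio turned to 0.044 and F13a1 came to -0.53. Without clusters mostly of 1 library they came to -0.20 and -0.51, under the fold. The early cells of this class, in the Elane-led clusters 4 and 14, were 18.5%, 25.9%, 8.21% and 10.1% of it, and they hold most of its F13a1 and Ms4a6c. Later granulocyte-like cells held both genes at 1.5 to 4.27 CPM and Lyz2 at 9625 to 11459.7 CPM.

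Early granulocyte-like cells, which share a progenitor with monocytes, were tested for 7 of the genes, and the split was made after the clusters were seen. In Mll3SI 1 gene was called (background 0.99%), in Mll4SI 4 (background 3.08%) and in Mll3/4SI 4 (background 2.98%), all upward. Ccr2 stood at 3.38, 8.36, 28.5 and 10.9 CPM, with log2 ratios of 1.10, 2.75 and 1.44. Ms4a6c stood at 39.9, 43.4, 107 and 84.3 CPM, with 0.12, 1.40 and 1.06. Ccr2 was the gene called in Mll3SI, and both genes were called in Mll4SI and Mll3/4SI, from levels under those of monocyte-like cells. Ccr2 reached the minimum of 10 CPM here only through Mll4SI (mean of the other 3 libraries 7.54 CPM), and its Mll3SI call compares 2 values below that minimum, so its calls are given as a description only. Lyz2 stood at 190.1, 227, 578 and 532 CPM, and its difference from erythroid-like cells was -35.3 CPM in Mll4SI, 83.1 CPM in control and 463 CPM for Mll3/4SI. The Mll4SI difference is uncertain, since its erythroid-like level was not spread evenly over cells, as set out above. F13a1 came to 0.89 in Mll4SI and -0.29 in Mll3/4SI, and Mpeg1 to 0.59 in Mll3/4SI. The Mll4SI erythroid-like cells also held more F13a1 (2.27, 3.91, 26.0 and 0.334 CPM), Ms4a6c (2.87, 7.82, 19.7 and 4.00 CPM) and Ccr2 (0.359, 1.72, 6.05 and 1.001 CPM), whose part in these results was not tested. Above them, Ccr2 still stood at 3.02, 6.64, 22.5 and 9.89 CPM and Ms4a6c at 37.1, 35.6, 87.2 and 80.3 CPM.

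HSC/MPP-like cells (599, 600, 471 and 220 cells) were tested for 7 of the genes. None was called in Mll3SI (background 1.1%), 4 in Mll4SI (background 3.67%) and 3 in Mll3/4SI (background 2.71%). Ccr2 rose in both, at 7.36, 11.2, 32.4 and 14 CPM, and its log2 ratio was 2.0 [1.78 to 2.51] for Mll4SI, 0.85 [0.44 to 1.41] for Mll3/4SI. The latter was 0.47, under the fold, with 10 CPM added. It held 26.4 CPM more than erythroid-like cells in Mll4SI and 7.002 CPM more in control. Ms4a6c stood at 76.7, 73.8, 120.3 and 114 CPM and was called in Mll4SI, at 0.64 [0.52 to 0.78], a call lost at Leiden resolution 2, at 0.37. Above erythroid-like cells it stood at 73.9 CPM in control and 100.6 CPM in Mll4SI, 1.36 times as much and under the fold. F13a1 stood at 27.5, 34.8, 48.3 and 8.21 CPM, with 0.79 in Mll4SI and -1.63 in Mll3/4SI. Above erythroid-like cells it stood at 25.3 CPM in control and 22.3 CPM in Mll4SI, so by this difference Mll4SI was below control. The subtracted Mll4SI level rests on few cells, though. A F13a1 UMI was found in 4.75% of erythroid-like cells of control (19 UMIs) and 4.63% of those of Mll4SI (116 UMIs). For Ms4a6c these were 5.5% (24 UMIs) and 8.33% (88 UMIs), so both differences are uncertain. The F13a1 values depended on how cells were filtered and clustered: they came to -0.14 in Mll4SI at a finer clustering, and in Mll3/4SI, from 38 UMIs, to -0.15 without doublet removal and -0.15 with members and markers among the clustering genes. Ly86 rose to 22.2 CPM from 13 CPM in Mll3/4SI (log2 0.73), and turned to -0.16 with cells classed by their nearest control cells. Lyz2 stood at 208, 226, 407 and 153 CPM, a difference from erythroid-like cells of -206.5 CPM in Mll4SI, although it is 1 of the 4 genes called there. After thinning, 37.1% of Mll4SI and 29.2% of control erythroid-like cells held a Lyz2 UMI, at 613 and 107 CPM. The Mll4SI difference of Lyz2 is thus uncertain too. Fn1 had no UMI in control and Mll3SI, where 3 UMIs would be 0.260 and 0.331 CPM, 18 UMIs in Mll4SI and 2 in Mll3/4SI.

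The 10 genes were found together in single monocyte-like cells more than in granulocyte-like, HSC/MPP-like or erythroid-like cells. After thinning to 3000 UMIs the median monocyte-like cell held UMIs of 5 of the 10 genes in every library, the median granulocyte-like cell 2, the median HSC/MPP-like cell 1 and the median erythroid-like cell 0. At least 5 genes were found in 56.8%, 60.8%, 75.9% and 63.4% of monocyte-like cells and in under 1% of granulocyte-like cells of each library. Dendritic-like cells, a small class, held a median of 4 genes in control and in Mll3SI (37 and 25 cells). At least 5 were found in 48.6% and 40% of them, so finding the genes together was not particular to monocyte-like cells. The Cpa3 and Fcer1a cluster of Mll3/4SI held a median of 2 genes, with at least 5 in 12.0% of its cells. Erythroid-like cells with at least 5 were 0 to 0.939%. From cell to cell the 10 genes were weakly correlated, with a median correlation of 0.0863 to 0.122 over the 45 pairs in the 4 libraries, which in sparse counts is no finding.

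Across 10 classes and 4 libraries (40 points, which share libraries and depth), the genes whose log level followed the mean of the 10 most closely were Apba1 (r = 0.912), Met, Gm15987, Cfp and Nrp1. Apba1 stood at 248, 268, 255 and 225 CPM in monocyte-like cells. Cfp, properdin of the alternative complement pathway, was lower in Mll4SI at 48.1, 51.3, 29.4 and 41.7 CPM. Of the 10 genes, Ly86 followed the mean of the other 9 most closely (r = 0.796) and Lyz2 least (r = 0.178), and Lyz2 is the gene with most of its UMIs in granulocyte-like cells.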

How the data were processed

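CD45.2+Kit+ bone marrow cells were measured in 4 libraries, 1 in each group, and the titles of the samples gave the groups. The deposited values are UMI counts per feature and cell barcode, made by the authors with Cell Ranger 7.1.0 on build mm10 per the submitters' processing notes; other settings are not given in the sources used here. The lowest barcode total was 500 or 501 UMIs. Each count is a molecule seen once, so precision is set by UMIs per gene, and CPM is the share of a gene in the summed gene UMIs of a class, scaled to 1000000.

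Cells with at least 500 genes, 1000 UMIs and at most 10% mitochondrial UMIs were kept, and the top 0.8% of Scrublet scores per 1000 cells were removed as doublets (2415 cells), after which 2.24% to 5.51% of cells still passed both hashtag thresholds (128 and 323 UMIs, placed after seeing the counts). Joint clustering used 2000 variable genes without members or markers, 30 components, 15 neighbours and Leiden resolution 1. A class needed at least 3 of its markers at a log2 fold of 1 and a lead of 2 over the next. Class names are a reconstruction and may not match the study's own. Cluster 6 was set aside and early granulocyte-like cells were split off after the clusters were seen. Clusters 15 and 18 stayed unnamed.

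Changes are log2 ratios of CPM plus 1 to control, called past a fold of 1.5 (0.58 on the log2 scale) among genes with a mean of at least 10 CPM. Intervals are exact Poisson, exact conditional for ratios and Clopper-Pearson for shares, at 95%. Intervals of ratios leave out the added 1, so for genes of low level they can lie above the printed ratio. Shares of cells with a UMI were taken after thinning to 3000 UMIs. The recovery of set fold changes was tested on simulated counts with Poisson error only. They held no variation between libraries, so this says nothing on that variation. Named genes were the 10 members, up to 6 genes of each fixed list and the genes most alike. Alternatives were another scaling, totals without the 20 most abundant genes, 10 CPM added, no minimum level, means over cells, no doublet removal, stricter cell filters, other resolutions and other ways of classing cells; leaving out cluster 6, counting it as basophil/mast-like, taking 1 hashtag alone and splitting shares from levels by nearest control cells were added after seeing the data. The members and lists were chosen with earlier results of these data known. Promoters come from RefSeq GRCm38.p6, and gene coordinates were not printed beyond them. Work was done in Python 3.11.15 (scanpy 1.11.5 and leidenalg 0.10.2 for clustering, scipy 1.17.1 for intervals).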

Additional observations from a re-analysis of the deposited data

How the results depend on the processing

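With 1 library in each group no replicate could be left out. No paired analysis was possible because each group holds 1 library. Directions of called genes turned in 4 cases, and the cause was not tested. Ms4a6c in all kept cells of Mll3/4SI came to -0.24 without cluster 6. With cells classed by their nearest control cells, Emb in granulocyte-like cells of Mll3/4SI came to 0.044. Ly86 in HSC/MPP-like cells of Mll3/4SI came to -0.16 under the same classing. F13a1 in HSC/MPP-like cells of Mll4SI came to -0.14 at Leiden resolution 2. Ratios of genes not called also turned with 1 hashtag alone. For example, Ly86 in all kept cells of Mll4SI went from -0.22 to 0.09 in Hashtag1 cells. Mpeg1 in monocyte-like cells of Mll3/4SI went from -0.06 to 0.29 in Hashtag2 cells. The ratio of the monocyte-like share in Mll3/4SI was 0.85 by nearest control cells, 0.58 with cluster 6 out of the denominator, and 0.62 and 0.25 in Hashtag1 and Hashtag2 cells. In Mll4SI these hashtags gave 0.90 and 0.71. The number of genes called in all kept cells of Mll4SI was 3 with median-of-ratios scaling and 3 with totals without the 20 most abundant genes, and 2 with no minimum level and 2 in Hashtag1 cells. In Mll3/4SI it was 2 with 10 CPM added and 2 in Hashtag1 cells. In monocyte-like cells of Mll3SI it was 0 with 10 CPM added, 0 at resolution 0.5 and 0 in Hashtag1 cells, and in Mll3/4SI it was 1 in Hashtag1 cells. In granulocyte-like cells it was 1 in Mll3SI with no minimum level or no doublet removal, and in Mll4SI 2 with no minimum level or without clusters mostly of 1 library and 1 in Hashtag1 cells. In Mll3/4SI it was 1 there with 10 CPM added, means over cells or nearest control cells. In HSC/MPP-like cells of Mll3SI it was 1 with no doublet removal, with members and markers among the clustering genes, with cells of both hashtags removed and in Hashtag1 cells, and 3 in Hashtag2 cells. In Mll4SI it was 7 there with no minimum level. In Mll3/4SI it was 1 with 10 CPM added and 7 in Hashtag2 cells. The calls of Ccr2 in monocyte-like cells of Mll4SI, HSC/MPP-like cells of Mll4SI and the fall of F13a1 in all kept cells of Mll3/4SI held under every alternative run, at 0.86 to 1.03, 1.25 to 2.31 and -0.92 to -0.69. Depth limits Fn1 in HSC/MPP-like cells, where its libraries hold 0 to 18 UMIs.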

Other observations

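Cluster 15, led by Bcl2, Aff3 and Cd34 and left without a name, held 6 of the 10 genes (F13a1, Ms4a6c, Ly86, Ccr2, Ly6c2 and Emb) at levels between those of HSC/MPP-like and monocyte-like cells in every library. It had 302, 299, 295 and 108 cells. F13a1 was counted there at 122.5, 123, 174 and 137 CPM and Emb at 408, 429, 392.3 and 389.8 CPM. Ms4a6c stood at 135, 134, 222.5 and 221 CPM. Ccr2 stood at 13.8, 30.2, 70.9 and 58.1 CPM, so control was lowest and Mll4SI highest, as in monocyte-like, early granulocyte-like and HSC/MPP-like cells. This order did not hold in every class. In dendritic-like cells Ccr2 was highest in control, at 680, 334, 592 and 441 CPM. In T/NK-like cells Mll3SI was lowest, at 277 CPM against 377 CPM in control. Lyz2 in cluster 15 stood at 167.5, 147, 422 and 382 CPM. The Mll4SI value was under the 613 CPM of its erythroid-like cells, a level not spread evenly over them.

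Nkg7 and Itga1, outside the 10, had large log2 ratios in the monocyte-like cells. Nkg7, a granule membrane protein that early granulocytes also carry, stood at 293, 258, 202 and 80.7 CPM, a log2 ratio of -1.85 in Mll3/4SI. It was also called lower in the granulocyte-like cells of Mll4SI and Mll3/4SI, so its fall was not particular to monocyte-like cells. Itga1, an integrin chain among the 10 genes most alike to the members, stood at 68.1, 57.8, 204 and 69.4 CPM, a log2 ratio of 1.57 in Mll4SI. Both were chosen after their values were seen.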
